A study of Mus musculus with 2 samples.

Results

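Chemokines are small secreted proteins that direct the movement of leukocytes and other cells, and the genes described here are all those with a chemokine or chemokine receptor symbol (Ccl, Cxcl, Cx3cl, Xcl, Ccr, Cxcr, Cx3cr, Xcr or Ackr followed by a number) on the array. They were chosen by symbol, with earlier results of these data known, from probe sets whose platform annotation names exactly 1 gene. This gave 53 genes with 85 probe sets, of 18193 genes with 34945 such probe sets in all. The 53 genes comprise 33 ligands and 20 receptors. The ovaries came from wild type CD-1 mice, aged 24 to 28 days, made to ovulate with PMSG (pregnant mare serum gonadotropin, 5 IU) and, 48 h later, hCG (human chorionic gonadotropin, 5 IU). At 2 h after hCG, 1 group received oil vehicle and the other ulipristal acetate, also labelled UPA or CDB, a selective progesterone receptor modulator. Ovaries were collected at 11 h, without a statement of which injection that time was counted from. The labels give neither the dose of the drug nor the number of mice behind each RNA sample.

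Each treatment was represented by 1 array, so no comparison has a replicate spread, a test or a p-value, and every difference stated is one between 2 RNA samples. Values are MAS5 signals in arbitrary units. A gene was read from its brightest probe set by mean log2 signal, and it counted as measured where that mean signal was at least 30.8, the median over all probe sets that are not controls. Signals under a floor of 7.17, the lower quartile of both arrays, were set to the floor before a ratio was taken. Ratios are ulipristal over vehicle, and 2-fold or more counts as higher or lower. Ovarian markers read above the filter on both arrays, with Inha, the inhibin subunit of granulosa cells, at 6933 and 8212, Cyp17a1 of theca cells at 851 and 1138 and Zp3 of oocytes at 211 and 301. In whole ovaries a lower signal can mean fewer cells of a type or less RNA per cell, and these cannot be told apart.

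Chemokine ligands bind receptors with 7 membrane-spanning segments that signal through inhibitory G proteins, whereas the atypical receptors (Ackr) take up ligands without that signal and so shape their gradients. Ligands are classed by the spacing of their first cysteines into CC, CXC, CX3C and XC types. Ovulation has long been compared with an inflammatory reaction: after the luteinizing hormone surge, neutrophils and macrophages gather in the follicle wall, and granulosa and theca cells are known sources of chemokines. The progesterone receptor, made by granulosa cells after the surge, is required for the follicle to rupture.

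Most of the family was dim on both arrays. Of the 53 genes, 22 were measured, 16 of them ligands and 6 receptors. Of these, 2 were at least 2-fold higher on the ulipristal array, the ligands Cxcl10 and Ccl27a. The ligand Cxcl1 was the 1 member at least 2-fold lower, and 19 lay between. Of all 11364 measured genes, 3.34% passed 2-fold upward and 1.56% downward. Among the 4217 measured genes with a mean signal below 150, where 17 of the 22 members lie, these shares were 7.52% and 1.78%. With 2 and 1 of 22 members past 2-fold, the counts are too small to set the family apart from that background. The members' median log2 ratio was 0.18, with 14 above 0 and 8 below, beside a median of 0.09 over all measured genes and 0.24 over those with a mean signal below 150. Median centring moved the median of all measured genes to -0.02 and their counts from 380 higher and 177 lower to 272 and 229, while quantile normalization gave 267 and 199 and lowess centring 267 and 204. The family's own counts stayed at 2 and 1 under these 3 settings.

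**Figure D1:**
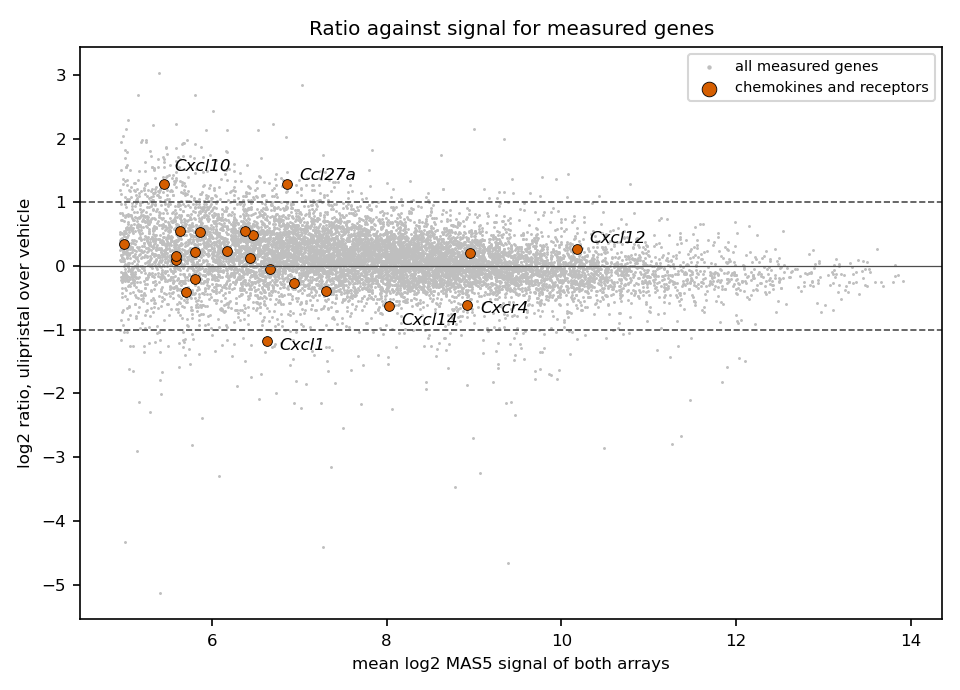
Each point is a measured gene, placed by its mean log2 MAS5 signal on both arrays (x) and its log2 ratio of ulipristal over vehicle (y), with the 22 measured chemokine and receptor genes in orange and dashed lines at 2-fold. Cxcl10 and Ccl27a lie above the upper line at log2 ratios of 1.29, Cxcl1 lies below the lower one at -1.18, and the other 19 members lie between.

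Cxcl10 is an interferon-inducible CXC chemokine that draws activated T cells and natural killer cells through the receptor Cxcr3. Its single probe set read 27.9 with vehicle and 68.1 with ulipristal, which is 2.44-fold higher at low signal. The vehicle value lies under the filter's mean signal but above the floor. The related ligands of the same receptor did not share this pattern at a readable level. Cxcl9 read 8.16 and 2.35, the second value below the floor, on its brighter probe set, and Cxcl11 read 15.6 and 12.9. Cxcr3 itself read 17.6 and 18.0, below the filter. Among the genes listed as inducers of such chemokines, the interferon-response factors Irf7 (23.6 and 41.9, 1.78-fold higher) and Stat2 (40.3 and 63.1, 1.56-fold higher) lay above 0 without reaching 2-fold. Irf1, which activates interferon-response genes, read 266 and 294, and Irf9, the partner of Stat2, 146 and 145. Interferon gamma, Ifng, was below the floor on both arrays. Markers of T and natural killer cells were near background: of 9 with a single-gene probe set only Gzmb, a granule protease, was measured (47.6 and 32.9), and Cd3e, Cd4 and Nkg7 were below the floor on both arrays. The summed signal of these 9 was 136 with vehicle and 101 with ulipristal. It takes in Cd8a, below the filter, at 33.4 and 11.1 on its brightest probe set, whereas the next read 9.73 and 11.8. The part of such cells in the Cxcl10 value was not tested.

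Cxcl1 is a CXC chemokine of the type that carries the residues glutamate, leucine and arginine (ELR) before its first cysteine, and such ligands recruit neutrophils through Cxcr2. Its 3 measured probe sets did not behave alike. The brightest, an s probe set, read 149 with vehicle and 65.6 with ulipristal, a 2.27-fold lower signal. The next read 119 and 81.6, a log2 ratio of -0.54, and the other, an x probe set, 85.5 and 87.7, a log2 ratio of 0.04. The call of Cxcl1 as lower therefore rests on 1 of its probe sets, chosen for a mean signal of 98.9 against 98.3 for the next, and the median over its probe sets was -0.54. The suffixes s and x mark probe sets whose probes can also bind other transcripts. Some genes of the other lists, S100a8 among them, were also read from such probe sets. The other ELR-type ligands were too dim to be measured: Cxcl2 read 12.0 and 11.4, Cxcl5 18.9 and 18.7, Cxcl15 7.63 and 10.3, and Cxcl3 7.27 and, below the floor, 3.42. Their receptor Cxcr2 was below the floor with vehicle and read 7.80 with ulipristal. Neutrophil markers went both ways beside Cxcl1. Of 4 measured among 9 with a probe set, the calgranulins S100a9 (150 and 40.6) and S100a8 (202 and 73.5) were 3.69-fold and 2.75-fold lower, lactoferrin, Ltf, was 2.72-fold higher (64.3 and 175), and Lcn2, an iron-binding granule protein, read 136 and 209. Below the filter, Camp read 43.9 and, below the floor, 5.58, and Ngp 27.5 and 12.3. Mmp8 read 15.8 and 13.9, Csf3r 19.1 and 21.1, and Itgam was below the floor with vehicle and read 15.5 with ulipristal. The summed signal of the 9 was 664 and 566, none was below the floor on both arrays, and their part in the Cxcl1 value was not tested.

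The promoters of Cxcl10 and of 3 ELR-type genes hold letters of inflammatory motifs and are shown for that reason. The sequences are the 250 bases before the start site in RefSeq (build GRCm38.p6), written 5′ to 3′ on the gene's strand, with matches in capitals. Capitals mark the interferon response element (GAAA, any 2 bases, GAAA) and the kappa B word (GGGA, any 2 bases, TTCC) in Cxcl10, and the kappa B word in the others, where matches on both strands overlap. Only exact matches to these letters are marked and counted, so other forms of either site are missed and stay in lower case. Cxcl10 lies on the minus strand at chr5:92348890-92349139, and on the plus strand lie Cxcl1 at chr5:90890995-90891244, Cxcl2 at chr5:90903649-90903898 and Cxcl3 at chr5:90785851-90786100.
Cxcl10: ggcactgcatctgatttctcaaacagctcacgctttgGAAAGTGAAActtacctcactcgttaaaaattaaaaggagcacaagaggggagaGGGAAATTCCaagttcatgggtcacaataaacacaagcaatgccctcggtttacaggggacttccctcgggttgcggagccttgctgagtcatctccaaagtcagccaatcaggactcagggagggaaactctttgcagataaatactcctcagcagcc
Cxcl1: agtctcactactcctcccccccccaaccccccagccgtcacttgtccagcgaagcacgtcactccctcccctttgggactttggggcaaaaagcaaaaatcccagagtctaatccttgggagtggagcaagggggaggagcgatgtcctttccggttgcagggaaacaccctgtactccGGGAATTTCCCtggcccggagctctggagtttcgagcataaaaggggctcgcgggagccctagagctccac
Cxcl2: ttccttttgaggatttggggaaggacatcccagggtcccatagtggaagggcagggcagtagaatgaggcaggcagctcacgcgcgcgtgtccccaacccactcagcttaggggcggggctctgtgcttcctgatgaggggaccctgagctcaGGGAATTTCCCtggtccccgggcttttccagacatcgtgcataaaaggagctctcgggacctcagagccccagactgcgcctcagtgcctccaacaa
Cxcl3: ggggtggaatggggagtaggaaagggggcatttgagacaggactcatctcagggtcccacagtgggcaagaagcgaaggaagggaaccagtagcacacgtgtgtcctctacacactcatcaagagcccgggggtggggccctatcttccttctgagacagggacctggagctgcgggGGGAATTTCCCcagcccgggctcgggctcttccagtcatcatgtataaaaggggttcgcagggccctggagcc

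In Cxcl10 the interferon element matched at bases -213 to -204 and the kappa B word at -159 to -150, counted back from the start site. The word GGGAATTTCC was the same in Cxcl1, Cxcl2 and Cxcl3, where it began 71, 97 and 73 bases before the start. Of the ELR-type genes, 4 had a promoter in the table, and the fourth, Cxcl15, held no match, while Cxcl5 had none to search. Ccl27a held no match to the interferon element or the kappa B word. A RefSeq promoter was found for 40 of the 53 genes. The kappa B word, searched on both strands, was present in 6 of these 40 genes (15%), against 1.36% of 27025 genes in the RefSeq table. The 6 were Cxcl1, Cxcl2, Cxcl3, Cxcl10, Ccl1 and the receptor Ccr3, of which only Cxcl1 and Cxcl10 were measured. As Cxcl1, Cxcl2 and Cxcl3 lie near each other on 1 chromosome and share the same word, they need not be separate cases. Cxcl10 was higher, whereas the probe sets of Cxcl1 did not share a direction. The interferon element was present in 2 of the 40 (Cxcl10 and Cxcl14), or 5%, against 3.46% of all genes. The hypoxia core ACGTG was present in 6 of 40, or 15%, against 18.5% of all genes. The palindromic element of progesterone and glucocorticoid receptors (GNACA, any 3 bases, TGTNC) was found in 0 of the 40 windows, and in 0.44% of all genes. A match describes letters in a window of 250 bases and shows no binding.

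Ccl27a is a CC chemokine best known from skin, where keratinocytes release it to attract T cells that carry Ccr10. Its single probe set, of the x type, read 74.4 with vehicle and 182 with ulipristal, a 2.44-fold higher signal. That probe set can also bind other transcripts, and the gene has closely related copies, so the signal may be shared among them. A pair of further probe sets that name Ccl27a together with 4 other genes, and so give no value for it alone, read 64.8 and 183 (log2 ratio 1.496) and 126 and 170 (log2 ratio 0.44). The gene is no longer called with a pseudocount of 50, where its log2 ratio is 0.90, and has no probe set once s and x probe sets are left out. Ccl28, an epithelial ligand of the same receptor, read 41.0 and 60.1 (1.47-fold higher). The receptor Ccr10 was below the floor on both arrays. Cxcl17, a ligand of mucosal epithelia, was below the filter, at 15.9 and 34.6. Markers of the oviduct and of surface epithelium were also higher on the ulipristal array, with a median log2 ratio of 1.04. Of 8 measured, 4 (50%) were at least 2-fold higher and 0 lower, beside 3.34% and 1.56% of all measured genes. The summed signal of the 8 was 4606 and 7256, with Ovgp1, at 3641 and 5642, the largest part. Krt8 read 377 and 383 on its brightest probe set. Foxj1, the regulator of motile cilia, read 19.1, under the filter's mean signal, and 75.1, and Epcam, an epithelial adhesion molecule, 107 and 268. The part of such tissue in the signals of Ccl27a, Ccl28 and Cxcl17 was not tested.

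All 3 genes of the Cxcl12 system read well above the filter on both arrays. Cxcl12 is a homeostatic ligand of stromal cells that retains and guides cells carrying Cxcr4, and Ackr3 is its scavenger receptor. Cxcr4 read 600 with vehicle and 394 with ulipristal, a 1.53-fold lower signal on its only probe set. In human granulosa cells the luteinizing hormone surge has been reported to induce CXCR4 by way of the progesterone receptor. Here Cxcr4 missed 2-fold, and its log2 ratio stayed between -0.72 and -0.55 under all 11 alternatives that kept the 2-fold rule. Ackr3 read 461 and 532 on its only probe set, of the s type, a 1.16-fold higher signal. The 2 measured probe sets of Cxcl12 opposed each other, with 1055 and 1272 on the brighter and 629 and 474 on the other, log2 ratios of 0.27 and -0.41. No direction can be given for the ligand. Hif1a, a hypoxia factor known to induce Cxcr4, read 4546 and 3019, a 1.51-fold lower signal. The part of Hif1a or of the progesterone receptor in the Cxcr4 value was not tested. Of 8 endothelial markers, all measured, 2 (25%) were at least 2-fold higher and 0 lower, beside 3.34% and 1.56% of all measured genes. The summed signals of these markers were 1693 and 2031.

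**Figure D2:**
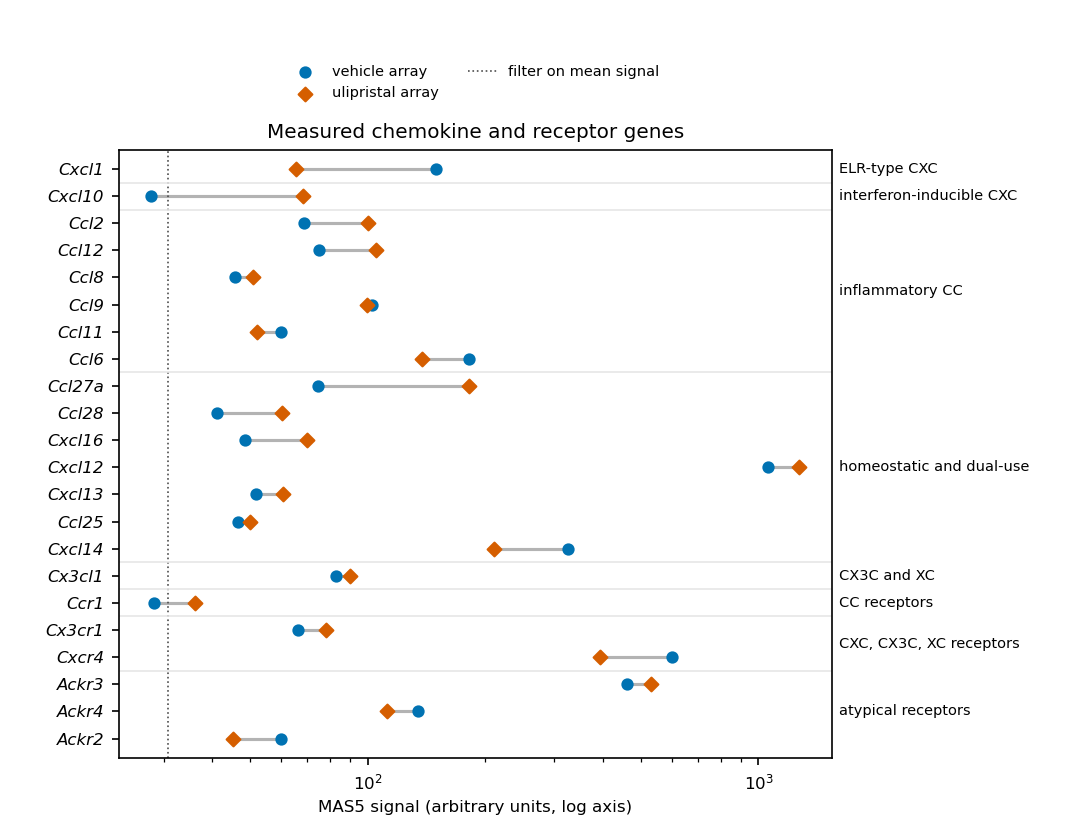
MAS5 signals (arbitrary units, log axis) of the 22 measured members with vehicle (blue circles) and ulipristal (orange diamonds), grouped by role, with 1 array per treatment. The widest separations are those of Cxcl10 and Ccl27a, with ulipristal to the right, and of Cxcl1, with ulipristal to the left, while Cxcr4 reads 600 and 394.

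The other homeostatic or dual-use ligands differed by less than 2-fold. Cxcl14, an epithelial and stromal chemokine, read 325 and 210 on its brightest probe set (1.55-fold lower) but 169 and 194 on its second, so its direction is unsettled. Cxcl16, which occurs as a membrane-bound ligand of Cxcr6 and also takes up oxidised lipoproteins, was above 0 on both of its probe sets, at 48.4 and 69.8 on the brighter and 33.5 and 63.8 on the other. These are 1.44-fold and 1.90-fold higher signals, the second from an s probe set. Its receptor Cxcr6 was below the floor with vehicle and read 14.3 with ulipristal on its brighter probe set. Cxcl13, the B cell chemokine, read 51.8 and 60.5 (1.17-fold higher), and its receptor Cxcr5 was below the floor on both arrays. Ccl25, a ligand of thymus and gut that acts on Ccr9, read 46.6 and 49.8. Of these, Cxcl16 and Cxcl13 kept their direction over both measured probe sets.

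Of the 12 inflammatory CC ligands, 6 were measured and all differed by less than 2-fold, 3 above 0 and 3 below. Ccl2 and Ccl12, which attract monocytes through Ccr2, read 68.6 and 100.2, and 74.99 and 105.1. Their ratios, 1.46-fold and 1.40-fold higher, were the highest of this group. Ccl6, a macrophage ligand of Ccr1, read 181 and 138 on its brighter probe set, 1.32-fold lower. Its other, an s probe set, read 65.0 and 49.8, 1.31-fold lower. Ccl9, from the same subgroup as Ccl6, read 103 and 99.5, and its dimmer probe set, below the filter, 23.6 and 36.8. Ccl11, the eosinophil chemokine eotaxin, read 59.9 and 52.1, and Ccl8, a further monocyte and lymphocyte chemoattractant, 45.8 and 50.9. The macrophage markers measured beside them, 11 of 12 listed, had a median log2 ratio of 0.20 and a summed signal of 1953 and 2288. C1qc was the 1 marker (9.09%) at least 2-fold higher (97.7 and 198) and 0 were lower. Of all measured genes, 3.34% were higher and 1.56% lower. The summed signal of 5 general leukocyte markers was 292 and 367, and the part of leukocyte content in these ratios was not tested. Of 7 eosinophil and mast cell markers 0 were measured, and Epx, Prg2 and Siglecf were below the floor on both arrays.

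Of the 20 receptors, 6 were measured, and 0 differed by 2-fold or more. Their log2 ratios ran from -0.61, for Cxcr4, to 0.35, for Ccr1. Ccr1, a receptor for inflammatory CC ligands, read 28.3 and 36.0, just above the filter. Cx3cr1, the fractalkine receptor of monocytes and macrophages, read 66.4 and 78.1, and its ligand Cx3cl1 82.8 and 89.9 on the 1 of its 4 probe sets that was measured. Both members of this pair differed by less than 1.5-fold on these probe sets. Another Cx3cl1 probe set, below the filter, was below the floor with vehicle and read 28.3 with ulipristal, at least 3.95-fold higher. A further one was below the floor with vehicle and read 11.3 with ulipristal, and the last was below the floor on both arrays. Ackr2, a scavenger of inflammatory CC ligands, read 59.8 and 45.0, and Ackr4, a scavenger of Ccl19, Ccl21 and Ccl25, read 134 and 112 on its brighter probe set. Ackr4 was below 0 on both of its measured probe sets, with log2 ratios of -0.26 and -0.09, the second from an x probe set.

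**Figure D3:**
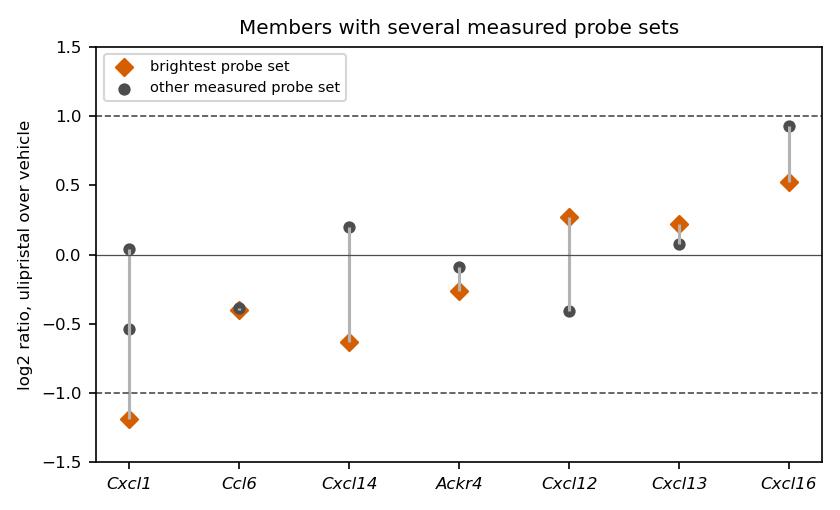
Log2 ratio of ulipristal over vehicle for the 7 members with 2 or more measured probe sets, with the brightest probe set as an orange diamond, other measured probe sets as grey circles and dashed lines at 2-fold. Cxcl1, Cxcl14 and Cxcl12 span 0, whereas Ccl6, Ackr4, Cxcl13 and Cxcl16 stay on one side of it.

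Probe sets of 1 gene give the only repeat readings in these data. Of the 7 members with 2 or more measured probe sets, 4 had the same direction in all, and 3 did not. The difference between the highest and lowest log2 ratio of a gene had a median of 0.40 and reached 1.22, for Cxcl1. Over all 4955 genes with 2 or more measured probe sets, 51.5% agreed in direction and the median spread was 0.43. They reflect differences between probes on the same RNA and give no measure of the spread between animals.

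The 31 members below the filter were 17 ligands and 14 receptors. Both arrays read below the floor for 9 of them, the ligands Ccl1, Ccl3, Ccl20 and Ccl24 and the receptors Ccr3, Ccr7, Ccr8, Ccr10 and Cxcr5, for which no fold is given. Only the ulipristal array was above the floor for Ccl22, Cxcr2 and Cxcr6, and only the vehicle array for Ccr4, Cxcl3 and Cxcl9. Ccl22, a ligand of Ccr4 made by dendritic cells and macrophages, read 12.1 with ulipristal, at least 1.68-fold higher. The other 16 lay above the floor on both arrays. Among these, Ccr6, a receptor of lymphocytes and dendritic cells for Ccl20, read 25.1 and 9.04, and Xcl1, the lymphotactin of T and natural killer cells, 9.61 and 20.6. Ccr2, the monocyte receptor, read 17.3 and 24.4 on its brightest probe set and 17.6 and, below the floor, 3.35 on another. Ccl5, a T cell and monocyte chemokine, read 25.4 and 18.0, Ccl7, a monocyte chemokine, 27.9 and 20.4, Ccl4, a macrophage-derived CC ligand, 11.0 and 19.1, and Ccl17, a Ccr4 ligand, 22.4 and 23.4. Ccr4 read 9.68 with vehicle, and Ccr9 (7.18 and 9.27) and Xcr1, the receptor of Xcl1 (7.50 and 8.59), lay just above the floor. Ackr1, which binds chemokines on red cells and venules, lay closest to the filter, with a mean signal of 30.4 and readings of 26.2 and 35.3, while Ccr1, at 31.9, lay just inside.

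**Figure D4:**
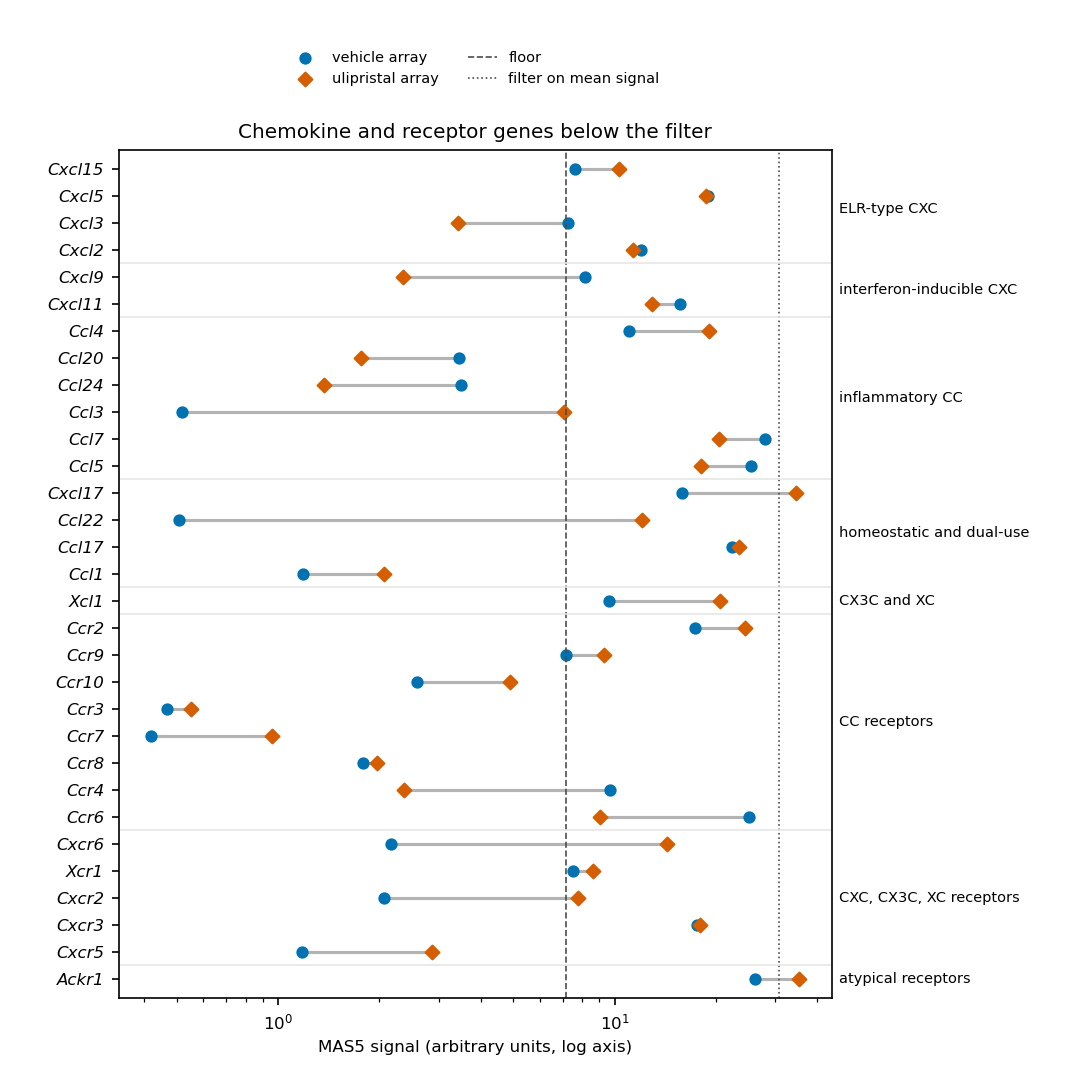
MAS5 signals (arbitrary units, log axis) of the 31 members that did not pass the filter, with vehicle (blue circles) and ulipristal (orange diamonds), with the floor of 7.17 dashed and the filter on mean signal of 30.8 dotted. Signals left of the dashed line, as for both readings of Ccr3, Ccr7 and Ccr8, have no order.

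Lists of other genes that display, transmit or induce chemokine signals were compared by the same rules. Of 15 measured genes of receptor signalling, 0 reached 2-fold, with a median log2 ratio of 0.16. Pik3cg, the lipid kinase subunit downstream of chemokine receptors in leukocytes, read 25.8 and 50.4 (1.95-fold higher), and Rgs2, a brake on G protein signalling, 5661 and 3047 (1.86-fold lower). The receptor kinase Grk3 read 93.9 and 172, and Rac1, a GTPase of cell movement, 2251 and 3087 on its brightest probe set. The second measured probe set of Rac1 read 1175 and 1215. Of 13 measured genes of chemokine proteolysis and display on glycosaminoglycans, 1 (7.69%) was at least 2-fold lower and 0 higher, beside 1.56% of all measured genes lower. That gene was Sdc4, syndecan 4, a heparan sulfate proteoglycan, at 1769 and 678 (2.61-fold lower). Of its relatives, Sdc1 read 3972 and 2450 (1.62-fold lower) on its brightest probe set. The other measured probe sets of Sdc1 had log2 ratios of -0.33, -0.75 and -0.02. Sdc3 read 144 and 266 (1.85-fold higher) on its brightest probe set, with log2 ratios of 0.03 and 0.05 on its other measured ones. Ext2, a heparan sulfate polymerase, read 303 and 437. Of 9 measured chemoattractants and receptors outside the symbol pattern, 0 reached 2-fold. Among them the platelet factor Pf4 read 143 and 157, Rarres2, the precursor of chemerin, 562 and 832, Ccrl2, which presents chemerin, 54.3 and 39.0, and Cd74, a receptor of the cytokine Mif and an antigen presentation chaperone, 62.3 and 116.

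Among inducers and regulators of chemokine transcripts, 1 of 13 measured genes (7.69%) was at least 2-fold lower and 0 higher. Of all measured genes, 1.56% were lower and 3.34% higher. The lower gene of the list was Zfp36, tristetraprolin, an RNA-binding protein that speeds the decay of cytokine and chemokine messages, at 619 and 233 (2.66-fold lower). Tnfaip3, a feedback inhibitor of NF-kappa B, read 106 and 68.2 (1.56-fold lower). Nfkbia, the inhibitor bound to NF-kappa B, read 2439 and 2041 on its brightest probe set. Its other measured probe sets had log2 ratios of -0.27, 0.09, 0.14 and 0.23. Rela, a subunit of NF-kappa B, read 598 and 641. The cytokines Tnf, Il1b, Il1a and Ifnb1, which induce chemokines, were below the filter, at signals of 28.0 or less on either array.

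**Figure D5:**
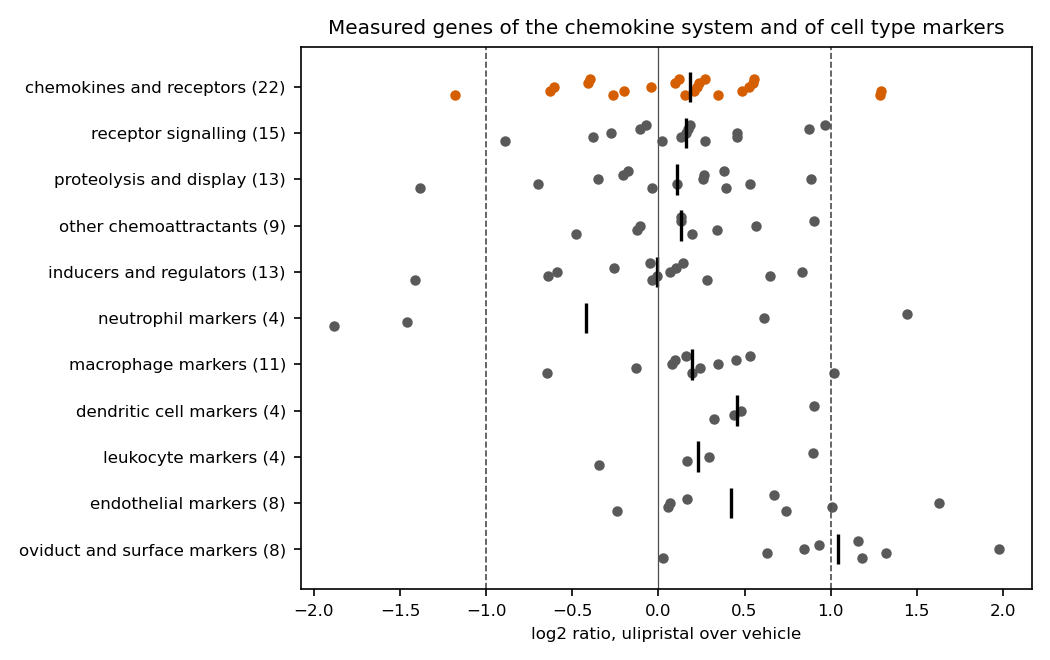
Log2 ratio of ulipristal over vehicle for each measured gene of the chemokine family (orange), of 4 lists of related genes and of 6 cell type marker lists (grey), with the number measured in brackets, black bars at medians and dashed lines at 2-fold. The family's median of 0.18 lies near those of receptor signalling, 0.16, and macrophage markers, 0.20, while that of oviduct and surface markers is 1.04.

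Summed signals of the remaining cell type markers, vehicle first, stand beside the chemokine values as follows. Cumulus genes gave 2042 and 366 over 4 genes, 3 of them (75%) at least 2-fold lower, beside 1.56% of all measured genes. The granulosa list read 12303 and 16416 over 7. Theca and stroma summed to 23786 and 27237 over 8 genes, oocyte genes to 1165 and 1300 over 6 and adipose genes to 1832 and 2588 over 4. Dendritic cell markers summed to 348 and 508 over 6 genes, and B cell markers, of which 0 were measured, to 28.7 and 37.1 over 3. The part of these differences in the chemokine values was not tested.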

How the data were processed

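Total RNA from whole ovaries was labelled from 100 ng, per the labels' protocols, and hybridised with 1 Mouse Genome 430 2.0 array (Affymetrix) per treatment. The deposited values are MAS5 signal intensities on a linear scale. Per the submitters' processing notes, MAS5 and version 1 of Affymetrix Expression Console were involved, with no role given. The mean after trimming 2% at each end was 150.001 on both arrays, values that bear out a global scaling, which hides any change common to most genes. Detection calls were not used, and a genome build was not given in the sources used here. For arrays, their number limits the precision.

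The table lists 45101 probe sets. After removal of 64 controls, 34945 had 1 gene symbol, 932 had more and 9160 had none. Gene identifiers were found in RefSeq (GRCm38.p6) for 34741, and 0 symbols changed. Signals below 7.17 (25th percentile) were set to that floor. The log2 ratio of ulipristal over vehicle was taken per gene from its probe set of highest mean log2 signal, with a filter at the 50th percentile and a threshold of 2-fold. All members are accounted for by both signals or by range. Of each other list, up to 4 measured genes of largest absolute ratio are named, and any further gene was picked with its values known. The members, lists and role groups were chosen with earlier results of these data known. No test was possible with 1 array per group. The steps were tested on simulated data. Alternatives were 3 kinds of scaling, other floors and filters, a pseudocount of 50, other probe set choices, and 1.5-fold and 3-fold. The work used numpy 2.4.6, statsmodels 0.14.6, pandas 2.3.3 and matplotlib 3.10.9 in Python 3.11.15.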

Additional observations from a re-analysis of the deposited data

How the results depend on the processing

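Leaving out the floor could not change the ratio of any measured member, as all lay above it on both arrays. The counts of 2 members higher and 1 lower were the same after median centring, quantile normalization and lowess centring, and with the floor at the 50th percentile. They fell to 0 and 0 with a pseudocount of 50, where Cxcl10, Ccl27a and Cxcl1 had log2 ratios of 0.60, 0.90 and -0.78, with the filter at the 75th percentile, which left 5 members, and at 3-fold. Without the filter, 5 were higher and 2 lower of 53, the added ones being Ccr6, Cxcl17, Cxcr6 and Xcl1. At 1.5-fold, 2 were higher and 3 lower, Cxcl14 and Cxcr4 being added, beside 12.3% and 4.58% of all genes. With the median over all probe sets of a gene, or over its measured ones (chosen after seeing the data), 0 were lower and Cxcl1 had a log2 ratio of -0.54. Without s and x probe sets, 1 was higher and 0 lower of 20. The median log2 ratio of the members was 0.074 with median centring, 0.059 with quantile normalization, 0.064 with lowess centring, 0.033 without the filter and -0.40 with the 75th percentile filter, against -0.02, 0.05, 0.04, 0.02 and 0.03 over all measured genes. Of the 19 members that did not reach 2-fold, 0 reached it, and 14 kept their direction, under those of the 11 alternatives with that threshold in which they were measured (9 to 11 for each). Ackr2, Ccl25, Ccl9, Cx3cl1 and Cxcl12 did not. A change of filter cannot alter a ratio, and a change of probe set choice cannot alter that of a member with 1 probe set. Such alternatives are no check on its direction. Over all genes, the share at least 2-fold higher and lower was 0.475% and 0.862% with the pseudocount, 5.63% and 2.53% without the filter and 0.822% and 1.43% with the 75th percentile filter, beside 3.34% and 1.56%. No paired analysis was possible because each treatment has 1 array. Causes of these changes were not tested.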

Other observations

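Beside the 85 probe sets analysed, 4 probe sets name a chemokine symbol together with other genes, 5 to 10 in all, and so give no value for a single gene. Vehicle first, they read 657 and 1125 for copies of Ccl21, and 30.7 and 45.4 for Ccl19 with related genes. The remaining pair, at 64.8 and 183 and at 126 and 170, are those of Ccl27a described above. Log2 ratios of the 4, from 0.44 to 1.496, were all above 0, as were those of 6818 of 11364 measured genes. The 1 past 2-fold belongs to the Ccl27a pair, beside 3.34% of all measured genes at least 2-fold higher. Of 62 symbols in the RefSeq table that fit the naming pattern, 9 had no probe set naming them alone and were not analysed here.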
